A study of Mus musculus with 4 samples.

Results

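The 4 mouse stearoyl-CoA desaturase genes, Scd1, Scd2, Scd3 and Scd4, were followed cell by cell in brain tumours of mice given vehicle or an inhibitor of these enzymes. The genes were taken by symbol, 4 of the 32285 genes in the count matrices, and 15858 of 27963 kept cells held a UMI (a unique molecular identifier, counting 1 captured RNA molecule) of at least 1 of them. Immunocompetent female C57BL/6 mice, with no age stated, had been given GFP-labelled EO771 cells, from a mouse mammary carcinoma, inside the skull. They received vehicle or the inhibitor, named only SCDi in the labels, with no compound or dose stated there, over 14 days. All mice of both treatments carried the tumour. Brains of 3 mice per treatment were pooled before sorting, and each pool gave 1 library of GFP-positive CD45-negative tumour cells and 1 of CD45-positive GFP-negative immune cells. There is therefore 1 library per treatment and sort and no replicate, no test across animals was possible, and every interval below is a 95% interval for counting error only.

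Stearoyl-CoA desaturases sit in the membrane of the endoplasmic reticulum and put a double bond into saturated fatty acids, turning stearate and palmitate into oleate and palmitoleate. They take electrons from cytochrome b5 and its reductase. The monounsaturated products go into phospholipids, triglycerides and cholesterol esters, and transcription of the genes is driven by the sterol regulatory element binding proteins and liver X receptors. Scd1 is known as the main isoform of liver, fat and skin, Scd2 of brain and of developing tissues, Scd3 of sebaceous and Harderian glands, and Scd4 of heart.

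The 4 genes lie next to each other on chromosome 19 of mm10, and their coding sequences are alike, so the sequences were compared first to see whether counts of the members could be mixed. In GENCODE M21, Scd3 (ENSMUSG00000025202) spans 44203269 to 44244016, Scd2 (ENSMUSG00000025203) 44293674 to 44306864 and Scd4 (ENSMUSG00000050195) 44333092 to 44346743, all on the plus strand, and Scd1 (ENSMUSG00000037071) spans 44394455 to 44407879 on the minus strand. Each main transcript has 6 exons, with coding lengths of 1065 bases in Scd1, 1074 in Scd2, 1077 in Scd3 and 1059 in Scd4. The coding sequences of Scd1 and Scd2 are 89.6% identical, those of Scd1 and Scd3 90.4%, and the lowest pair is Scd2 and Scd4 at 82.6%. The stretch of 60 coding bases within 1 exon that is most alike between Scd1 and Scd2 is shown because it holds no difference at all between Scd1, Scd2 and Scd4, and 1 in Scd3. Capitals mark bases that differ from Scd1.

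Scd1: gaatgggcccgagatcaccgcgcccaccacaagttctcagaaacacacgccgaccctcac
Scd2: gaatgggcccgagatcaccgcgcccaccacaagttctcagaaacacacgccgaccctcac
Scd3: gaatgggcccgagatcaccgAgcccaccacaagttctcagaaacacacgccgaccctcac
Scd4: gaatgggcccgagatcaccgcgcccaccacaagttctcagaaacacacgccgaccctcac

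These stretches lie at chr19:44401827-44401886 (Scd1, minus strand), chr19:44299621-44299680 (Scd2), chr19:44235783-44235842 (Scd3) and chr19:44338922-44338981 (Scd4). The least alike stretch of the same length, near the start of the coding sequence, holds 14 differences from Scd1 in Scd2, 2 in Scd3 and 11 in Scd4.

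Scd1: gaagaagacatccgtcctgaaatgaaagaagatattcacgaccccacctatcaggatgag
Scd2: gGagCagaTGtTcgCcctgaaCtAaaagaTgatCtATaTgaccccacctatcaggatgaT
Scd3: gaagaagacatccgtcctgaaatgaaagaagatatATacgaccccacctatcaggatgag
Scd4: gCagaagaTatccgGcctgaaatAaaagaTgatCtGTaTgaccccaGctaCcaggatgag

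They lie at chr19:44406611-44406670 (Scd1, minus strand), chr19:44295003-44295062 (Scd2), chr19:44215501-44215560 (Scd3) and chr19:44334078-44334137 (Scd4). The assay reads the 3' end of a transcript, and after the coding sequence the main transcripts run on for 3467 (Scd1), 3667 (Scd2), 2160 (Scd3) and 1847 bases (Scd4). In the last 500 bases of each main transcript, 0 of 451 words of 50 bases occurred in any annotated transcript of another member. Reads from these ends could thus be told apart by sequence. UMIs at the 3' end are not scaled to length, so Scd1 and Scd2 levels are compared below as UMIs per 1000000 UMIs of the gate (CPM), under the reservation that 2 transcripts can be captured unequally.

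Cells were assigned by UMIs of marker genes within their own sort. A Krt8 tumour cell had a Krt8 UMI and none of Cd79a, Ms4a1, Cd3e and Csf1r, a B cell had a Cd79a or Ms4a1 UMI, a T cell a Cd3e UMI and a Csf1r myeloid cell a Csf1r UMI, in each case with no UMI of another gate's marker. This gave 5510 vehicle and 6211 SCDi tumour cells, 4195 and 4437 myeloid cells, 299 and 151 T cells, and 119 and 115 B cells. Median UMIs per cell were 39157 and 34824 in the tumour gate, 16129 and 17039 in the myeloid, 12058 and 10943 in the T and 6774 and 6426 in the B gate. Pairs of libraries shared 9 to 23 cell barcodes. In the tumour sort 98.0% of vehicle and 96.4% of SCDi cells held a Krt8 UMI, but the label of an epithelial line rests on that gene: in vehicle cells of the gate Krt18 was found in 14.2%, Cdh1 in 5.50% and Epcam in 1.23%. In the tumour sort the leukocyte gene Ptprc was found in 7 vehicle and 0 SCDi cells and Cd3e in 0 of either. In the immune sort Ptprc was found in 96.6% and 98.1% of cells. Lyz2 was found in 96.2% and 96.8% of myeloid cells and Cd3d in 88.6% and 91.4% of T cells.

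Scd2 had the most UMIs of the 4 Scd genes in the tumour cells and was higher under SCDi. It stood at 48.4 CPM (47.4 to 49.3, 10081 UMIs) in vehicle and at 88.1 CPM (86.8 to 89.4, 18497 UMIs) in SCDi, 1.82-fold higher, with a log2 ratio of 0.86 (0.83 to 0.90). The intervals of the 2 libraries did not overlap. Among the 9378 genes with a mean of at least 5 CPM, 330 (3.52%) were higher in SCDi by a log2 ratio of 0.32 or more and 567 (6.05%) lower by as much, and Scd2 ranked 12 from the highest ratio. An interval that excludes 0 is common at this depth: 32.4% of those genes had one above 0 and 44.1% one below. A Scd2 UMI was found in 62.6% (61.3% to 63.9%) of vehicle and 74.6% (73.5% to 75.7%) of SCDi tumour cells. At an equal depth of 2000 UMIs per cell, a level that 344 vehicle and 674 SCDi cells did not reach, the expected shares were 8.84% and 15.6%.

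Scd1 came second among the 4 Scd genes in the tumour cells. It stood at 21.1 CPM (20.5 to 21.7, 4392 UMIs) in vehicle and 30.5 CPM (29.8 to 31.3, 6404 UMIs) in SCDi, a log2 ratio of 0.53 (0.48 to 0.59) and rank 64. Scd1 UMIs were found in 47.7% of vehicle and 53.8% of SCDi cells, against 0.858% and 1.10% of myeloid and 0.669% and 0.662% of T cells. After thinning to 2000 UMIs the tumour shares were 4.03% and 5.89%. The higher level of Scd2 moved the balance: Scd1 made up 30.3% (29.6% to 31.1%) of Scd1 and Scd2 UMIs in vehicle and 25.7% (25.2% to 26.3%) in SCDi.

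The size of both ratios depended on which Krt8 cells were counted. Cells of the tumour sort carried low Cd79a, with a UMI in 1333 of 7009 vehicle and 1723 of 8262 SCDi cells, and Pax5 in 39.6% and 36.6%, while Ms4a1 was found in 13 and 10 cells. The gate therefore left out 1329 vehicle and 1721 SCDi Krt8 cells for a Cd79a UMI. In those cells the Scd2 level was 53.3 CPM (vehicle) and 61.02 CPM (SCDi), a log2 ratio of 0.19 (0.13 to 0.26), and Scd1 at 26.6 and 24.0 CPM, a ratio of -0.15 (-0.24 to -0.06). With all Krt8 cells counted, whatever other markers they held, Scd2 went from 49.7 to 80.6 CPM, a ratio of 0.70 (0.67 to 0.73), and Scd1 from 22.4 to 28.7 CPM, a ratio of 0.36 (0.31 to 0.40).

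The ratios were lower at each step of Cd79a UMIs. Scd2 had a ratio of 0.86 in cells with none, 0.29 (0.21 to 0.36) in cells with 1 and 0.01 (-0.10 to 0.12) in cells with 2 or more, and Scd1 one of 0.54, 0.01 (-0.11 to 0.13) and -0.44 (-0.60 to -0.29). Cells with more Cd79a UMIs were also deeper, with vehicle medians of 39232.5, 48434 and 53950 UMIs. Over 4 depth bins, from the shallowest to the deepest, the Scd2 ratio was 1.07, 1.07, 0.85 and 0.73 without a Cd79a UMI and 0.79, 0.78, 0.33 and 0.17 with 1. The intervals overlapped in the shallower 2 bins (0.28 to 1.34 and 0.52 to 1.06 with 1 Cd79a UMI) and did not in the deeper 2. In vehicle cells Scd1 stood at 21.1, 24.6 and 30.4 CPM over the 3 steps, and in SCDi cells at 30.6, 24.8 and 22.4 CPM. The order of the steps was thus opposite in the 2 libraries for Scd1. A different mix of tumour cells in the 2 pools and a different level per cell cannot be told apart with 1 library each.

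**Figure D1:**
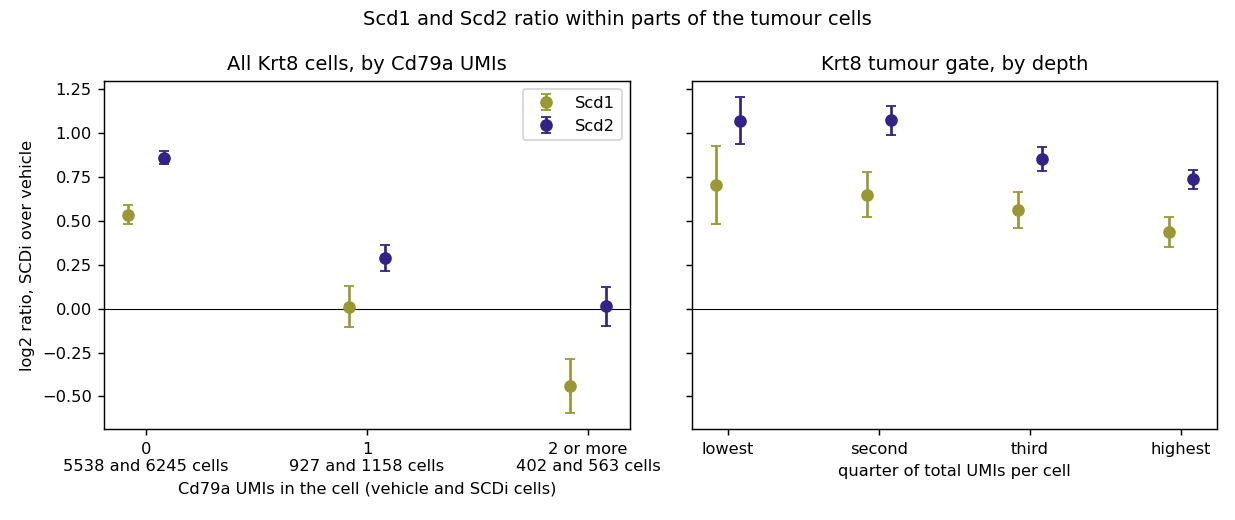
Log2 ratio of SCDi over vehicle for Scd1 and Scd2 in Krt8 cells of the tumour sort, with 95% counting intervals as bars, by number of Cd79a UMIs (left, all Krt8 cells) and by depth bin (4 bins of total UMIs per cell) (right, cells of the gate). Both genes step down from 0 to 2 or more Cd79a UMIs, Scd2 from 0.86 to 0.01 and Scd1 from 0.54 to -0.44, while all 4 depth bins lie above 0.

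Over 4 bins of total UMIs per cell, the Scd2 ratio was 1.07, 1.07, 0.85 and 0.74 from the shallowest to the deepest, and the Scd1 ratio 0.70, 0.65, 0.56 and 0.44. Every bin was higher in SCDi for both genes. Cycling cells, taken as those with a UMI of Mki67 or Top2a, had a Scd2 ratio of 0.85 and a Scd1 ratio of 0.54. The others had 1.04 and 0.59, but their depth differed, with a median of 27074.5 UMIs in vehicle and 3321 in SCDi.

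The UMIs of Scd2 were spread over many tumour cells rather than held by a few. With each cell thinned to 5000 UMIs by 1 random draw, 80.4% of vehicle tumour cells had no Scd2 UMI, 16.2% had 1, 2.75% had 2 and 0.162% (8 cells) had 4 or more. In SCDi the same shares were 67.9%, 23.3%, 6.80% and 0.574% (31 cells). The variance over the mean was 1.21 in vehicle and 1.29 in SCDi for Scd2, and 1.03 and 1.03 for Scd1, where 1 is the value of pure counting noise. The cell with most Scd2 UMIs held 32 in vehicle and 33 in SCDi, and without those 2 cells the ratio was 0.87.

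**Figure D2:**
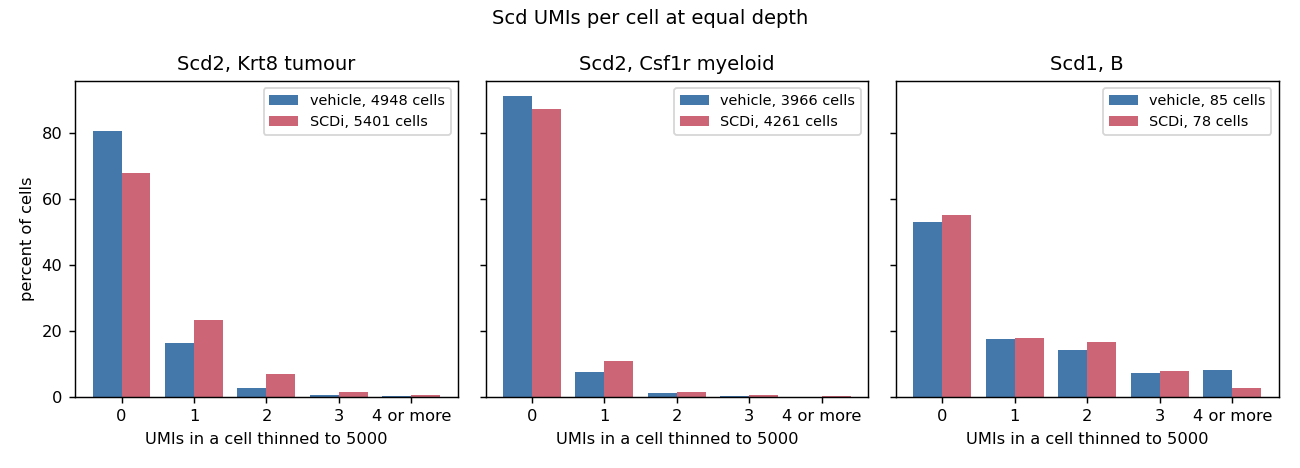
Percent of cells (vertical axis) with 0, 1, 2, 3 and 4 or more UMIs after thinning each cell to 5000 UMIs, for Scd2 in the Krt8 tumour and Csf1r myeloid gates and for Scd1 in the B gate, vehicle and SCDi side by side. The Scd2 bar at 0 is lower in SCDi in both gates (67.9% against 80.4% in tumour, 87.0% against 91.05% in myeloid cells), and the B cells have the widest spread.

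Scd1 and Scd2 were found together in the same tumour cell more often than independence would give. With all UMIs, 36.4% of vehicle and 47.2% of SCDi cells held both, against 29.9% and 40.1% if the genes were independent, with odds ratios of 3.18 and 4.88. The observed share was 1.22 times the independent one in vehicle and 1.18 times in SCDi, and after thinning to 2000 UMIs 1.28 and 1.31 times. The odds ratio was nearer to 1 at equal depth than with all UMIs. Thinned to 2000 UMIs it was 1.34 (0.86 to 2.08) in vehicle and 1.43 (1.08 to 1.89) in SCDi, and at 5000 UMIs 1.46 (1.17 to 1.82) and 1.46 (1.24 to 1.71). At 5000 UMIs a Scd2 UMI was expected in 25.4% of vehicle cells with Scd1 and 18.9% of those without, and in 39.9% and 31.3% in SCDi. Over single tumour cells thinned to 5000 UMIs, Pearson's r of the 2 genes was 0.06 over 4948 vehicle and 0.10 over 5401 SCDi cells, both weak.

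Scd3 and Scd4 were close to absent from the tumour cells. Scd4 had 74 UMIs in 1.31% of vehicle cells and 141 UMIs in 2.14% of SCDi cells, 0.355 and 0.671 CPM, a log2 ratio of 0.91 (0.50 to 1.35). With all Krt8 cells counted it had 101 and 195 UMIs, a ratio of 0.87 (0.52 to 1.24), and 0.77 (0.08 to 1.52) in those with a Cd79a UMI, where the ratios of Scd1 and Scd2 were small. Scd3 had 20 and 29 UMIs, 0.096 and 0.138 CPM, with an interval from -0.35 to 1.42. Of the tumour cells with a Scd4 UMI, 88.9% of 72 in vehicle and 93.2% of 133 in SCDi also held Scd2, against 62.3% and 74.2% of cells without one, but they were deeper (medians of 46497.5 against 39078 UMIs in vehicle). Neither gene reached the 5 CPM minimum in any of the 4 gates. An antisense gene overlaps Scd3 on the other strand in the annotation, so part of the few Scd3 UMIs could belong to it if strand was not used in counting.

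Myeloid cells expressed Scd2 with almost no Scd1. Scd2 stood at 23.6 CPM (22.5 to 24.7, 1852 UMIs) in vehicle and 35.9 CPM (34.7 to 37.2, 3220 UMIs) in SCDi, a log2 ratio of 0.61 (0.52 to 0.69), rank 36 of 9307 genes. In this gate 209 genes (2.25%) were higher past a log2 ratio of 0.32 and 445 (4.78%) lower, and 28.2% had an interval above 0. A Scd2 UMI was found in 23.3% of vehicle and 34.03% of SCDi myeloid cells, and in 4.17% and 6.04% after thinning to 2000 UMIs. The ratio was above 0 in all 4 depth bins, at 0.43, 0.78, 0.54 and 0.57, and at 0.63 in cells without Mki67 and Top2a. Scd1 had 46 and 52 UMIs, 0.586 and 0.58 CPM, a ratio of -0.02 (-0.62 to 0.59), against 0.964 and 0.40 CPM in T cells. Free RNA was not measured, so whether these UMIs came from the myeloid cells themselves was not tested. Scd4 had 13 and 17 UMIs and Scd3 4 and 4.

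Oligodendrocytes are a known source of Scd2 in brain, so Mbp, Mag, Mog and Mobp, known as myelin genes, were read in the gates. In the myeloid gate the Mbp level was 35.8 CPM with vehicle against 30.4 with SCDi, and in the tumour gate 39.4 against 30.4 CPM. Mbp was not particular to these 2 gates: in vehicle it stood at 76.7 CPM in T cells and 69.4 CPM in B cells. In the vehicle tumour gate a Mbp UMI was found in 63.2% of cells, while Mog had 7 UMIs and Mobp 3. Its level can therefore not be read as an amount of oligodendrocyte RNA. Mag went from 4.65 to 6.69 CPM in myeloid cells, and in the tumour gate it was at 0 UMIs in vehicle and 1 in SCDi. Mobp stood at 0.280 and 0.201 CPM in myeloid cells, and Mog had 1 and 2 UMIs there. In the finer gates described below, Mag was found in 14.0% and 19.7% of microglia and in 10.9% and 13.8% of natural killer cells. Mog had 1 and 2 UMIs in those microglia and 0 in the natural killer cells of either library. Whether RNA of oligodendrocytes had a part in the Scd2 values was not tested.

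Within the immune sort, 14 finer marker gates with at least 30 cells in both libraries (the B gate among them) had Scd2 ratios from -0.56 to 1.58 with a median of 0.48. Scd2 was higher in SCDi in 13 of 14, with an interval above 0 in 7 and one that included 0 in the other 7. Such an interval above 0 was as common among all genes as 7.63% in CD8 T cells, 15.8% in natural killer cells, 15.9% in microglia, 13.9% in cDC2, 22.9% in C1q macrophages, 18.9% in monocytes and 12.8% in other Csf1r cells. In the other 7 gates it was found for 6.47% (B), 13.5% (Foxp3 T), 11.1% (other T), 8.1% (neutrophils), 9.44% (migratory dendritic cells), 7.68% (plasmacytoid dendritic cells) and 14.2% (cDC1) of genes. By direction alone, 41.5% (B) to 54.5% (cDC1) of all genes were higher in SCDi within a single gate. The 13 gates with higher Scd2 include B cells, at a ratio of 0.01. The share of genes higher in as many gates was not computed, and the gates share the same 2 libraries. Monocytes (Csf1r with at least 3 UMIs of Ly6c2 and Plac8) went from 16.8 to 28.9 CPM, a ratio of 0.78 (0.61 to 0.96), macrophages (Csf1r with at least 20 UMIs of C1qa, C1qb and C1qc) from 25.2 to 37.7 CPM, 0.58 (0.43 to 0.73), and microglia (P2ry12 or Tmem119) from 29.1 to 38.4 CPM, 0.40 (0.26 to 0.55). In vehicle the intervals of C1q macrophages and microglia overlapped (23.2 to 27.4 and 26.8 to 31.4 CPM), and both lay above that of the monocytes. Overlap of separate intervals does not show equal levels, and the ratio between these 2 gates was not computed.

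**Figure D3:**
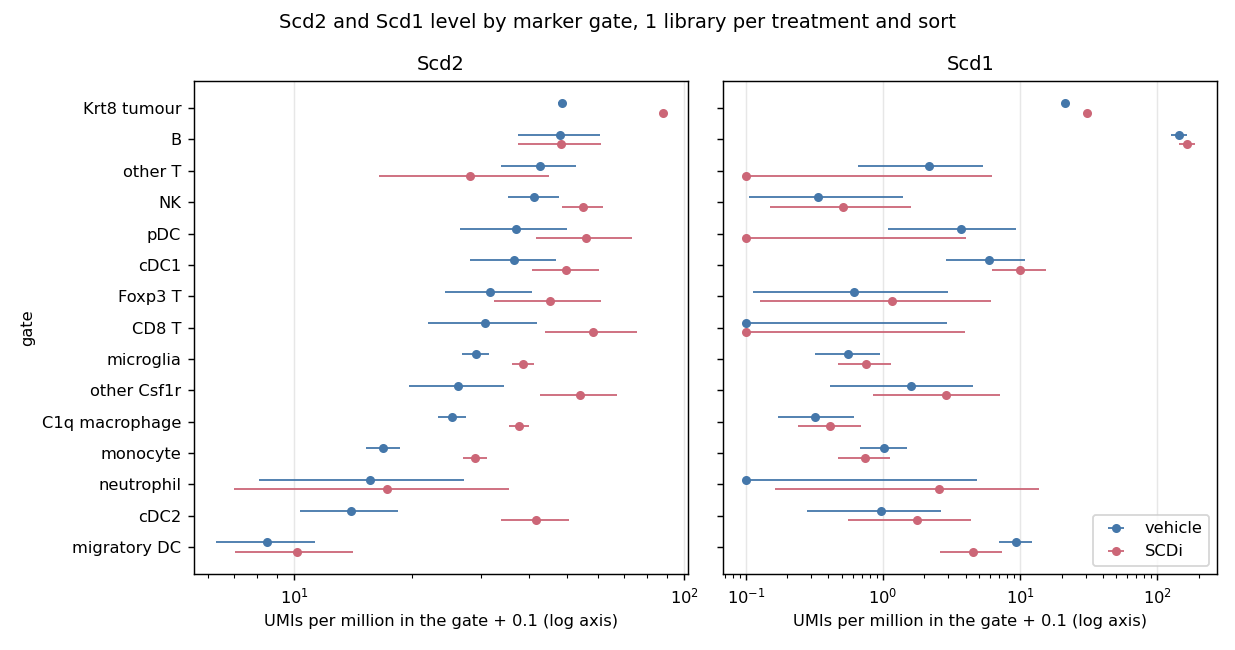
Level of Scd2 (left) and Scd1 (right) in CPM plus 0.1, on log axes, in the Krt8 tumour gate and 14 marker gates of the immune sort, vehicle and SCDi, with exact Poisson 95% intervals as bars. Scd2 lies between 8.4 and 48.4 in vehicle over all gates, whereas Scd1 is above 20 only in the B and tumour gates.

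The highest ratio was in cDC2, dendritic cells gated on Cd209a, where Scd2 had 48 UMIs in 193 vehicle cells and 99 in 126 SCDi cells. It went from 13.9 CPM (10.2 to 18.4) to 41.6 CPM (33.8 to 50.6), a ratio of 1.58 (1.07 to 2.11), and from 12.4% to 38.1% of cells. The highest cell held 4 and 9 of those UMIs, and the ratio without these cells was 1.57. Of the lipid synthesis genes described below, 23 of 31 measured (74.2%) were higher in the SCDi cDC2, against 52.7% of all genes, and 14 of them past a log2 ratio of 0.32, against 21.5% of all genes, with a median of 0.25 against 0.02. In microglia, where Scd2 was also higher, 7 of 27 (25.9%) were higher, against 47.4% of all genes, and in monocytes and C1q macrophages 17 of 28 and 17 of 26. The cDC1 (Xcr1, Clec9a) stood at 36.5 and 49.7 CPM and plasmacytoid dendritic cells (Siglech) at 36.8 and 55.8 CPM, with intervals of the ratio that included 0.

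The gate of other Csf1r cells went from 26.2 to 53.7 CPM, but 32 of its 78 SCDi UMIs of Scd2 sat in 1 cell of 94041 UMIs. Without the highest cell of each library the levels were 22.5 and 33.9 CPM and the ratio 0.59 (-0.04 to 1.22). Natural killer cells (Ncr1, Klrb1c) had 41.02 CPM of Scd2 with vehicle against 54.8 with SCDi, a ratio of 0.42 (0.14 to 0.70) and 0.35 (0.06 to 0.64) without the highest cells. Neutrophils had few UMIs of Scd2, 12 and 7, and migratory dendritic cells (Ccr7, Fscn1) had the lowest level, 8.41 and 10.05 CPM.

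T cells held Scd2 and almost no Scd1. Scd2 stood at 35.5 CPM (184 UMIs, 27.8% of cells) in vehicle and 45.95 CPM (115 UMIs, 32.5% of cells) in SCDi, a ratio of 0.38 (0.02 to 0.72), in a gate where 13.7% of genes were higher past a log2 ratio of 0.32 and 10.5% had an interval above 0. Without the highest cell of each library the interval included 0 (-0.01 to 0.72). After thinning to 2000 UMIs the shares were 5.24% and 6.20%. T cells with Mki67 or Top2a went from 39.5 to 61.1 CPM and those without from 28.6 to 23.7 CPM, a ratio of -0.26 (-1.03 to 0.44). CD8 T cells went from 30.7 to 58.1 CPM (40 and 56 UMIs), a ratio of 0.92 (0.31 to 1.54), Foxp3 T cells from 31.6 to 45.02 CPM, and the other T cells from 42.4 to 28.05 CPM, the 1 gate of 14 that was lower in SCDi, with an interval from -1.44 to 0.17. Scd1 had 5 UMIs in vehicle, 4 of them in 1 cell, and 1 in SCDi.

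B cells were the gate with the most Scd1. It stood at 144 CPM (125 to 165, 207 UMIs) in vehicle and 165 CPM (145 to 188, 233 UMIs) in SCDi, in 63.03% (53.7% to 71.7%) and 63.5% (54.0% to 72.3%) of cells, a log2 ratio of 0.20 (-0.07 to 0.48). In this gate 16.5% of genes were higher and 27.7% lower past a log2 ratio of 0.32. Thinned to 2000 UMIs, 32.6% and 34.7% of B cells were expected to hold Scd1, against 0.12% and 0.13% of myeloid and 4.03% and 5.89% of tumour cells. The intervals of the level in B cells did not overlap those of any other gate. Scd2 stood at 47.9 CPM (69 UMIs) and 48.2 CPM (68 UMIs), a ratio of 0.01 (-0.49 to 0.51), close to the vehicle tumour cells. Scd1 thus made up 75.0% (69.5% to 80.0%) and 77.4% (72.3% to 82.0%) of Scd1 and Scd2 UMIs in B cells.

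**Figure D4:**
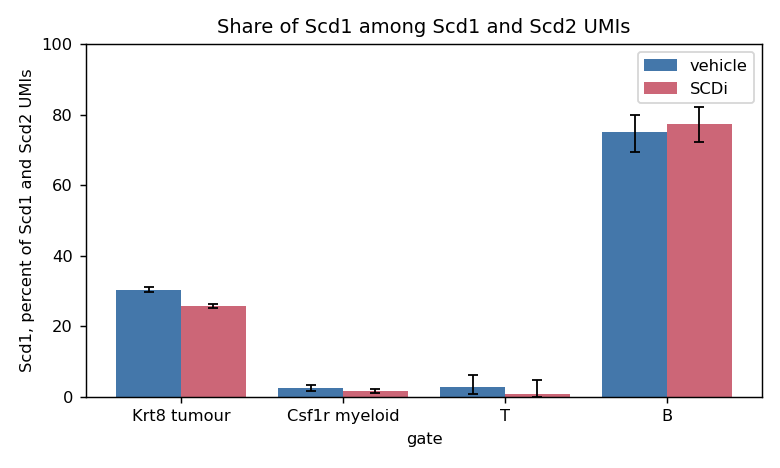
Scd1 UMIs as a percent of Scd1 and Scd2 UMIs (vertical axis) in the 4 gates, vehicle and SCDi, with exact binomial 95% intervals as bars. Scd1 makes up 75.0% and 77.4% in B cells, 30.3% and 25.7% in tumour cells and under 3% in myeloid and T cells.

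Among B cells, those with a UMI of Ighd, the heavy chain of naive B cells, held the most Scd1, 234 CPM in 68 vehicle and 247 CPM in 61 SCDi cells. Those without Ighd stood at 85.5 CPM in 51 vehicle and 125 CPM in 54 SCDi cells, a ratio of 0.55 (0.12 to 0.99). Their median depth was 8763 and 13216.5 UMIs, against 6744 and 5495 with Ighd. In the whole B gate 1 SCDi cell held 23 of 233 Scd1 UMIs, and the ratio without the highest cells was 0.15 (-0.14 to 0.43). For the Ighd split neither that ratio nor the share of all genes with an interval above 0 was computed. For Scd2 the values were 31.9 and 49.7 CPM with Ighd and 58.1 and 47.4 CPM without. Dividing B cells (Mki67 or Top2a) were few, 13 and 18, with 65.1 and 142 CPM of Scd1. The odds ratio of Scd1 and Scd2 in the same B cell was 0.58 (0.25 to 1.35) in vehicle and 1.38 (0.56 to 3.40) in SCDi, so a link in either direction was not detectable with these numbers of cells. Ighm, the heavy chain of IgM, stood at 1785 CPM in vehicle and 5186 CPM in SCDi in the same gate. The myeloid gene Lyz2 stood at 612 and 220 CPM in these B cells, and its part in the Scd values was not tested.

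Immune cells with a B marker and a Csf1r UMI, 151 and 125 cells left out of both gates, also held Scd1, at 62.6 CPM in vehicle and 41.3 in SCDi. Scd2 in them stood at 21.6 and 47.4 CPM. Their medians of 20275 and 23083 UMIs lay above those of the B and the myeloid gate, and whether they were doublets was not tested. A single SCDi cell of 123864 UMIs held 25 UMIs of Scd1 and 34 of Scd2. Without the highest cells the ratio was -0.72 (-1.05 to -0.41) for Scd1 and 1.00 (0.59 to 1.42) for Scd2. With every immune cell counted that held a B marker, with or without another gate's marker (572 cells over both libraries), the Scd1 ratio was -0.24 (-0.44 to -0.05), on the other side of 0 from the ratio of the gate.

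Ordered by Scd1 level in vehicle, B cells came first, tumour cells came next and migratory dendritic cells after them, at 9.29 CPM (6.96 to 12.2), without overlap of the intervals between the first and the second or the second and the third. From the third on, each gate overlapped the next, beginning with cDC1 at 5.80 CPM. Migratory dendritic cells had 53 Scd1 UMIs in 7.97% of 414 vehicle cells and 15 in 5.22% of 230 SCDi cells, 9.29 and 4.43 CPM, a ratio of -1.03 (-2.00 to -0.22), and -1.17 without the highest cells. Of genes in that gate 14.1% had an interval below 0. In cDC1 6 of 10 vehicle and 14 of 21 SCDi UMIs of Scd1 sat in 1 cell each. For Scd2 the vehicle order began with tumour cells (48.4 CPM), B cells (47.9), the other T cells (42.4) and natural killer cells (41.02). It ended with cDC2 (13.9) and migratory dendritic cells (8.41). The only neighbours whose intervals did not overlap were C1q macrophages and monocytes. In SCDi tumour cells stood apart at the top, at 88.1 CPM, followed by CD8 T cells at 58.1.

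The genes most like Scd1 over the 28 points of 14 immune gates and 2 treatments, among 6525 genes, were the B lineage genes Cd79a, Ms4a1, Jchain, Ighg2c and Pax5 (r of 0.82 to 0.85). This likeness rested on the B cells, which Cd79a and Ms4a1 define: without them r was 0.15 for Jchain and -0.06 for Pax5. For Scd2 they were Wdr18, Ndufa5, Mrpl57, Ppp5c and Mrpl23, with r of 0.86 to 0.88 and 0.86 to 0.87 without B cells. Ndufa5 encodes a subunit of respiratory complex I, and Mrpl57 and Mrpl23 encode mitochondrial ribosomal proteins. The points share libraries and differ in depth. Over single tumour cells thinned to 5000 UMIs, Scd2 went most with the cholesterol synthesis genes Cyp51, Idi1 and Hmgcs1, the fatty acid elongase Elovl6 and Gm30835. Their r was 0.08 to 0.12 in vehicle and 0.10 to 0.20 in SCDi, against a median of 0.01 over 5956 genes. Scd1 went most with Scd2, Idi1, Mvd, Msmo1 and Sdc4 at r of 0.04 to 0.10. In myeloid cells Scd2 went most with the glycolytic genes Tpi1 and Aldoa, the lysosomal genes Grn and Ctsb, and Slc43a2, at r of 0.09 to 0.10. All of these single-cell r values are weak in sparse counts. Over all compared genes, the r values of the 2 libraries correlated at 0.035 for Scd1 in tumour cells. For Scd2 they correlated at 0.47 in tumour and 0.63 in myeloid cells. The order of genes by likeness to Scd1 was thus hardly shared between the libraries.

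The other genes around desaturation were read from a list of 37 by role. In tumour cells 33 were measured, 24 of them higher and 9 lower, with 7 higher and 1 lower past a log2 ratio of 0.32 (21.2% and 3.03% of those measured) against 3.52% and 6.05% of all genes. Their median ratio was 0.09, against -0.03 over all genes. With Krt8 cells kept that held another gate's marker, 5 of the list were higher past a log2 ratio of 0.32, beside 305 of all genes. Among the 4 other desaturases, Fads2, the delta-6 desaturase of polyunsaturated fatty acids, went from 8.65 to 17.6 CPM (ratio 1.03), Fads1, the delta-5 desaturase, from 10.2 to 14.3 (0.49) and Fads3 from 30.8 to 41.1 (0.41), while the sphingolipid desaturase Degs1 stood at 91.7 and 89.4 (-0.04). Among genes that make the substrate, acetyl-CoA synthetase Acss2 went from 4.71 to 8.53 CPM (0.86), Elovl6, which extends palmitate to stearate, from 43.1 to 57.7 (0.42) and Acsl3 from 26.8 to 34.5 (0.36). Fatty acid synthase Fasn stood at 79.9 and 80.2 CPM (0.01) and Acaca at 61.7 and 73.7 (0.26).

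Among regulators, Insig1, a sterol-sensing retention factor and target of the sterol regulatory element binding proteins, went from 16.6 to 22.6 CPM (0.44) and its paralog Insig2 from 58.3 to 45.6 (-0.36). The regulators themselves differed little: Srebf1 had a ratio of 0.15, Srebf2 of 0.07 and Scap of 0.00. The electron donors Cyb5a, Cyb5b, Cyb5r1, Cyb5r3 and Cyb5r4 lay between -0.07 and 0.14, and of the genes that use the product, Lpcat3, which puts unsaturated fatty acids into phospholipids, had 0.14 and Dgat1 -0.09. In myeloid cells 28 of the list were measured, with 14 higher, a median of 0.01, and none higher past that ratio other than Elovl6 (4.47 to 5.80 CPM); Gpat3 (22.8 to 16.3 CPM) and Rxra (12.2 to 9.16 CPM) were lower.

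**Figure D5:**
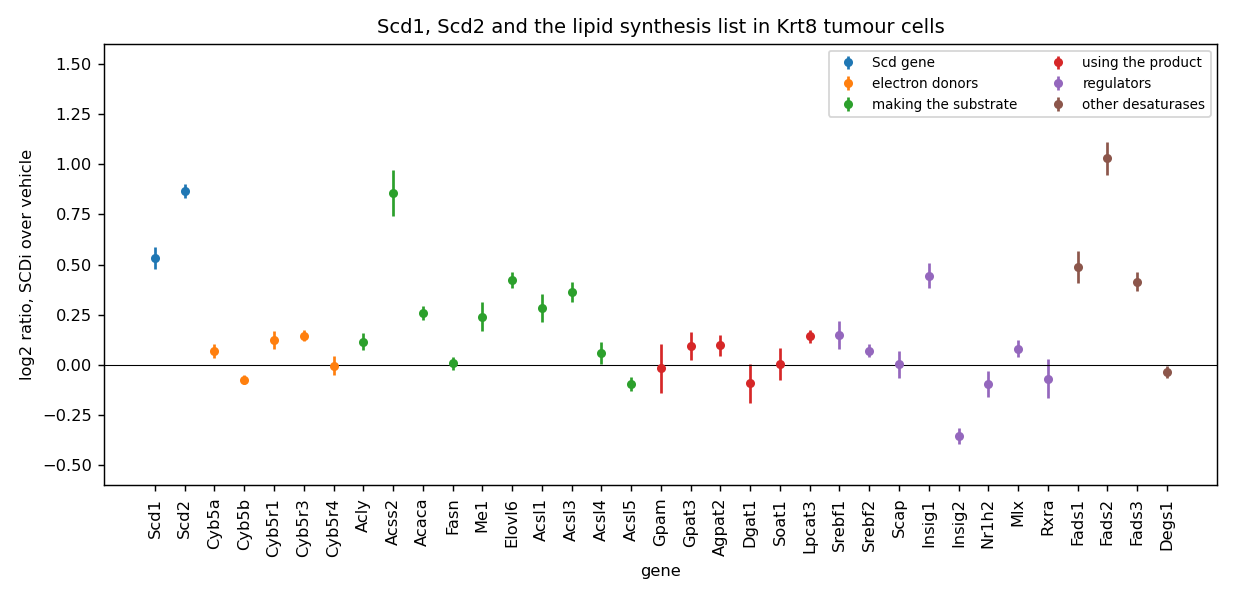
Log2 ratio of SCDi over vehicle (vertical axis) for Scd1, Scd2 and the 33 measured genes of the lipid synthesis list in Krt8 tumour cells, coloured by role, with 95% counting intervals as bars. Scd2 (0.86), Fads2 (1.03) and Acss2 (0.86) stand highest, and Insig2 (-0.36) lowest.

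The genes beside the Scd cluster were read for comparison in tumour cells. The 5 measured genes on each side on chromosome 19 had ratios from -0.19 (Hif1an) to 0.22 (Ndufb8) with a median of 0.08, 7 of them higher, and all 330 measured genes of the chromosome had a median of 0.02. Scd1 and Scd2 both lay above the highest of these 10 neighbours.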

How the data were processed

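Per the labels' protocols, single-cell libraries were made with the 10x 3' chemistry from sorted cells of pooled brains. The authors deposited filtered matrices of raw UMI counts per gene and barcode. Cell Ranger 7.1.0 and mm10 are named per the submitters' processing notes, and no annotation or intron setting is stated. Barcodes with at least 300 genes and at most 15% mitochondrial UMIs were kept (6453 to 8895 per library), and the highest doublet scores were removed at 0.8% per 1000 barcodes (333 to 633 per library). The 4 libraries kept 6120 to 8262 cells, with medians of 15294 to 40955 UMIs. UMIs were summed over the cells of a gate and scaled to 1000000 UMIs (CPM). Ratios had 0.5 counts added, with an exact conditional binomial interval, levels an exact Poisson and shares a Clopper-Pearson interval, all at 95%. Finer gates took at least 2 UMIs of their markers unless stated here or above. The B gate and the T gates, CD8 and Foxp3 T cells among them, took 1 or more marker UMIs. Neutrophils had at least 20 UMIs of a marker pair and at least 1 of another marker. Microglia also had a Csf1r UMI. Each cell went to the first finer gate it met. Lymphocytes, neutrophils, dendritic cells and microglia were taken before C1q macrophages, then came monocytes and last the other Csf1r cells. Thinned shares are hypergeometric expectations, and distributions and single-cell correlations used 1 random draw. The ratios and their intervals were tested on simulated Poisson counts with known folds, and the thinned share of Scd2 against random draws from vehicle tumour cells. Gating, doublet removal, co-expression and correlations were not tested in this way.

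Genes with a mean of at least 5 CPM in a gate count as measured. Named are the 4 Scd genes, a list of 37 lipid genes, the 5 genes most like Scd1 or Scd2 in each comparison (at 20 CPM or more) and the 5 measured chromosome 19 neighbours on each side. Single cells or markers named for their values were chosen after those were seen. The genes, gates and lists were chosen with earlier results of these data known. Transcript sequences and positions came from GENCODE M21. Python 3.11.15, numpy 2.4.6, scipy 1.17.1, pandas 2.3.3 and scikit-learn 1.9.0 were used. Some marker genes are not reported here.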

Additional observations from a re-analysis of the deposited data

Results flagged for a closer look

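Scd1 differed in direction between migratory dendritic cells and the Krt8 tumour gate. Its log2 ratio of SCDi over vehicle was -1.03 in migratory dendritic cells, with an interval below 0, and 0.53 in Krt8 tumour cells, with an interval above 0. The difference was not tested, since each value comes from 1 library per treatment. The dendritic cell value rests on 53 and 15 UMIs. Both directions also occurred within the tumour sort, where Krt8 cells with a Cd79a UMI had a ratio of -0.15 (-0.24 to -0.06). An interval below 0 was found for 14.1% of genes in migratory dendritic cells. One above 0 was found for 32.4% in the tumour gate.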

How the results depend on the processing

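Of 147 alternatives, 22 moved a value beyond its counting error (for counts of genes, far from the count reported), 1 reversed it and 124 did neither. With cells kept that held another gate's marker, the log2 ratio in tumour cells was 0.70 for Scd2 and 0.36 for Scd1, in myeloid cells -0.63 for Scd1 and in B cells -0.24 for Scd1. Without cells holding Mki67 or Top2a it was 1.04 for Scd2 and 0.59 for Scd1 in tumour cells, and it reversed for Scd2 in T cells, to -0.26. The number of genes higher past the log2 ratio of 0.32 in tumour cells was then 556, and of the lipid list 11 (chosen after seeing the data). With tumour cells kept that held another gate's marker, these counts were 305 and 5, against 330 and 7 in the gate (also chosen after seeing the data). With CPM taken per cell and then averaged, the ratio was 0.99 for Scd2 and 0.60 for Scd1 in tumour cells, and 0.52 for Scd2 and -0.090 for Scd1 in B cells. The cause of these moves was not tested. Thinning sets the size of a share: the difference in tumour cells with Scd2 was 11.96 percentage points without thinning, 3.77 at 1000 UMIs and 13.0 at 5000, and with Scd1 6.13, 1.02 and 4.09. For Scd2 in myeloid cells it was 10.7 without thinning and 4.24 at 5000. The odds ratio of Scd1 with Scd2 in tumour cells was 3.18 in vehicle and 4.88 in SCDi without thinning. No paired analysis was possible because each treatment has 1 library per sort. Depth limits the B and T gates and all values of Scd3 and Scd4.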
